A study of Mus musculus with 3 samples.

Results

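First intron regions that carried reads of an Ets-1 precipitation were examined in Min6 cells, a mouse insulinoma line used as a model of the insulin-secreting β-cell. A member was a region of the deposited comparison table on chromosomes 1 to 19 and X that is annotated to intron 1 of a transcript, with a count of 5 or more for the Ets-1 virus and of 4 or fewer for the input. The rule found 1099 members among 55076 first intron regions and 542768 regions of any class on these chromosomes. Members were 2.00% of the first intron regions, and the same read limits took 2.05% of all regions, so first introns were not set apart from the rest of the table by their share of members.

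The Ets-1 virus group is 1 chromatin precipitation with an Ets1 antibody from Min6 cells infected with Ad-Ets-1, an adenovirus that overexpresses Ets-1. The control virus group is 1 precipitation with the same antibody from Min6 cells infected with Ad-GFP. The input group is 1 library of Min6 chromatin without precipitation, whose virus the labels do not give. Infection lasted 24 h in medium with 25 mM glucose, and chromatin was fixed for 10 min with 1% formaldehyde. Both precipitated groups carry an adenovirus, so uninfected cells are not among them. With 1 library in each group there is no replicate, no test was made, and every value below describes these libraries. Cell type markers cannot be checked, because the assay reads DNA and no RNA.

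Ets-1 is the founding member of the ETS family of transcription factors, which bind DNA through a winged helix domain that reads a GGAA core, with a preference for the bases around it. ETS factors are known for binding close to start sites, where promoters rich in CpG often carry the recognition word, and for acting with partner factors elsewhere. The first intron is the stretch between the first and second exons, and it often holds enhancers and alternative start sites. Simple tandem repeats, in which a short unit is copied head to tail, are common in mouse introns, and short reads are hard to place in them.

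The members' sequence is shown first because the results below include what their windows hold. The first 4 stretches are the 200 bp windows at the centres of members with among the most Ets-1 virus reads, on the plus strand of build mm10 (GRCm38), read from the NCBI GRCm38.p6 genome. Capitals mark perfect tandem runs of at least 16 bases with a unit of 1 to 6 bases. Smo lies at chr6:29748160-29748359, St8sia1 at chr6:142937634-142937833, Sgcd at chr11:47516488-47516687 and Cadm2, which has no such run, at chr16:67006720-67006919.
Smo: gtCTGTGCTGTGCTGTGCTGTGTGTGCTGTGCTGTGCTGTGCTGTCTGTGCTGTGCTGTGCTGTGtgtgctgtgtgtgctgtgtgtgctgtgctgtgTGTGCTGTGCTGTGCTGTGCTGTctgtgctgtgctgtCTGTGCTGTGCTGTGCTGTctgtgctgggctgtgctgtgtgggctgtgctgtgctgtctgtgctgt
St8sia1: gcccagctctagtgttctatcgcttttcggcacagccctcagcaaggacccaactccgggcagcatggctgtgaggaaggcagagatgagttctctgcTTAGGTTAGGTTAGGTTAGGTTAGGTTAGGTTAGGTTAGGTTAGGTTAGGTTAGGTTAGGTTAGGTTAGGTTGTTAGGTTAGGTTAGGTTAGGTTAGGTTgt
Sgcd: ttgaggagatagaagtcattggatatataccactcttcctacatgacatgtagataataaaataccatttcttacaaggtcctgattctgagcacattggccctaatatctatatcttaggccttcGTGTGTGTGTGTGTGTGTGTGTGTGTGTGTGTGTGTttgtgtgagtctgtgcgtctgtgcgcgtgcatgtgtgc
Cadm2: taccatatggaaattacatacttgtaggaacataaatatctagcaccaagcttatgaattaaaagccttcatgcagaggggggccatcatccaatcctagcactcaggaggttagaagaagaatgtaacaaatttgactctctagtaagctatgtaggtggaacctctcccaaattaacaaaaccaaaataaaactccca

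The second set shows the ETS recognition word, CCGGAAGT or CAGGAAGT on either strand, in capitals within 60 bases of 4 members that hold it. It is shown because this is the word the overexpressed factor is known to read, and few members had it. The stretches are on the strand that reads the word, minus for Ntm at chr9:29638039-29638098 and plus for Opcml at chr9:28043916-28043975, Acvr2b at chr9:119424388-119424447 and Dapk1 at chr13:60698373-60698432.
Ntm: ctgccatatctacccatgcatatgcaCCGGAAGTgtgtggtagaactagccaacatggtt
Opcml: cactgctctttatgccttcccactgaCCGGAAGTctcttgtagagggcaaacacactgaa
Acvr2b: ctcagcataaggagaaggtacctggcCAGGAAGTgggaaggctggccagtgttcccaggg
Dapk1: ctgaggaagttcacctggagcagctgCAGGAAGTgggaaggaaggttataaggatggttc

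The members were low in reads. Their 1099 regions held 7091 reads in the Ets-1 virus library, 806 in the control virus library and 222 in the input, or a mean of 6.45, 0.733 and 0.202 reads per region. Exactly 6 Ets-1 virus reads were counted in 558 members (50.8%), exactly 5 in 269 members (24.5%), and 10 or more in 65 members (5.91%). An even number was found in 69.2% of members, and since libraries were sequenced in pairs, 6 reads can be as few as 3 fragments at 2 reads each. Just outside the limit, 2591 first intron regions had 4 Ets-1 virus reads, and 4 members sat at the limit of 4 input reads.

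Library totals, recovered from the deposited values, were 1938473 reads for the Ets-1 virus, 1775757 for the control virus and 3937473 for the input. Scaled to these totals, the members' summed reads were 8.06 times those of the control virus (95% interval 6.99 to 8.54, on fragments) and 64.9 times those of the input. The rule chose high Ets-1 virus reads, so these ratios describe the choice. Over all 55076 first intron regions, the Ets-1 virus to control virus ratio was 0.717. Intervals cover counting error only, and reads without molecular identifiers are not independent molecules.

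The control virus reads were not used by the rule. No control virus read was found in 815 members (74.2%), against 35.6% of all first intron regions. Members had a mean of 0.733 and a median of 0 control virus reads, and first intron regions with 4 or fewer input reads had a mean of 1.40 and a median of 2. So members held fewer control virus reads than the table's first intron regions at large, but these regions are not a neutral background. A control virus peak of the authors' deposited list overlapped 19.7% of members and 63.4% of all first intron regions. An Ets-1 virus peak overlapped 99.1% of members and 42.4% of all first intron regions. How regions entered the table can by itself set such differences in control virus reads and peaks, so nothing is read from them. The same limit holds for the share with 5 or more control virus reads, from which nothing is read either. That count was reached by 31 members (2.82%, exact 95% interval 1.92 to 3.98). Of first intron regions with 4 or fewer input reads 2.34% reached it. Without a limit on input reads the shares were 4.55% (3.41 to 5.94) by the members' rule and 2.38% of all first intron regions, with 2.12% of all regions on these chromosomes. At least 2 times the control virus after scaling, with 3 or more control virus reads assumed, was reached by 253 members (23.0%), against 0.463% of all first intron regions. The rule chose members on the Ets-1 virus reads of this ratio, so nothing is read from it.

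**Figure D1:**
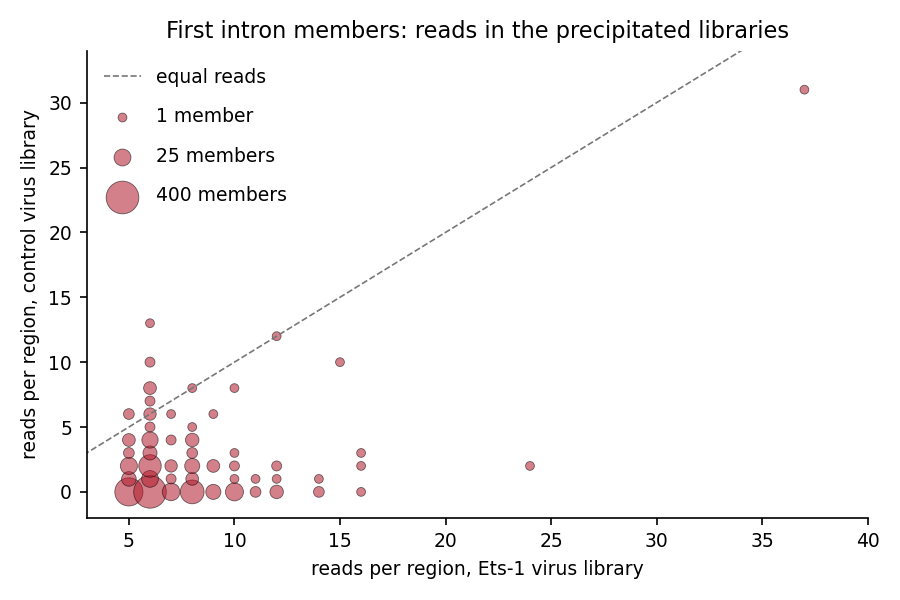
Reads per member in the Ets-1 virus library (horizontal axis) and in the control virus library (vertical axis), with larger points for more members at the same reads and a dashed line at equal reads. Most members sit at 5 or 6 Ets-1 virus and 0 control virus reads, and Smo stands alone at 37 and 31.

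Few members stood clear of the lowest counts. Smo, the membrane protein that relays hedgehog signals, had the most, with 37 Ets-1 virus, 31 control virus and 2 input reads. The Smo region lies at chr6:29747882-29748637, 12.6 kb from the host transcript's start. Its scaled ratio of the Ets-1 virus to the control virus was 1.09 (0.530 to 2.26), so its reads did not separate the viruses. St8sia1, the sialyltransferase that makes ganglioside GD3, had 24 Ets-1 virus, 2 control virus and 4 input reads at chr6:142937609-142937857, a ratio of 11.0 (1.63 to 470). Its 249 bp region held a 72-base run of a 5-base unit, printed above, and its 4 input reads were the most that the rule allowed.

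Several of the next members had no control virus read. Chil4, a chitinase-like protein, had 16 Ets-1 virus, 0 control virus and 2 input reads at chr3:106215318-106215640. The muscle membrane protein gene Sgcd, at chr11:47516293-47516881, and the cell adhesion gene Cadm2, at chr16:67006665-67006973, each had 14 Ets-1 virus reads and none in the control virus or input library.

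Abtb2, Zfp462 and Prdm10 each had 12 Ets-1 virus reads with 0 in both other libraries. Zfp462 and Prdm10 encode zinc finger proteins. The magnesium channel gene Trpm6 had 12 Ets-1 virus, 0 control virus and 1 input reads, and the ferric reductase gene Frrs1 had 12, 0 and 2. The orphan receptor gene Gpr141 had 14 Ets-1 virus, 1 control virus and 0 input reads, with an interval of 0.824 to 289. At this depth a member with 14 reads against 1 was not separated from equal levels.

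In the authors' deposited peak lists, 1089 members (99.1%) overlapped an Ets-1 virus peak, against 42.4% of all first intron regions. For 285 members (25.9%) the strongest such peak had a q of at most 0.05, against 0.565% of all first intron regions. These peaks were called from the reads that the rule used, so nothing is read from their shares. A control virus peak overlapped 216 members, and for 6 members (0.546%) its q was at most 0.05, against 0.556% of all first intron regions. In the Ets-1 virus list the authors' fold enrichment was 8.03 with a −log10 q of 8.92 for Smo. It was 5.57 with 4.74 for both Zfp462 and Prdm10. For St8sia1 it was 3.20, with a −log10 q of 0.546. Smo also had a control virus peak, with a fold enrichment of 8.14 and a −log10 q of 9.35.

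After Smo, 5 named members had the most control virus reads. Btaf1, an ATPase that removes TBP from DNA, had 6 Ets-1 virus, 13 control virus and 0 input reads, and the fatty acid activating enzyme gene Acsl5 had 12, 12 and 0. Ndfip1, an adaptor of ubiquitin ligases, had 15 Ets-1 virus, 10 control virus and 3 input reads. Glg1 and Fam49b each had 6, 10 and 0. The scaled ratio of the Ets-1 virus to the control virus ran from 0.423 for Btaf1 (0.0655 to 1.72) to 1.37 for Ndfip1 (0.423 to 5.69), and each of these 5 intervals included equal levels. Over the 31 members with 5 or more control virus reads, summed reads were 241 for the Ets-1 virus, 253 for the control virus and 14 for the input, a ratio of 0.873 (0.678 to 1.13).

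Members lay in their introns much as other first intron regions did. They were a median of 25.8 kb (quartiles 8.84 to 70.8) from the host transcript's start site, against 27.1 kb for all first intron regions. They sat at a median of 52.1% of the way through an intron of 60.9 kb, against 52.1% of 65.1 kb for all first intron regions. The share of first intron regions that were members was 1.88% within 2 kb of the host start (36 of 1920) and 1.84% beyond 100 kb (185 of 10077), with a highest value of 2.22% between 2 and 5 kb. None of the 1099 members was nearer than 1 kb to a start site. The deposited annotation has promoters as a class of their own, and how it ranks classes was not checked.

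**Figure D2:**
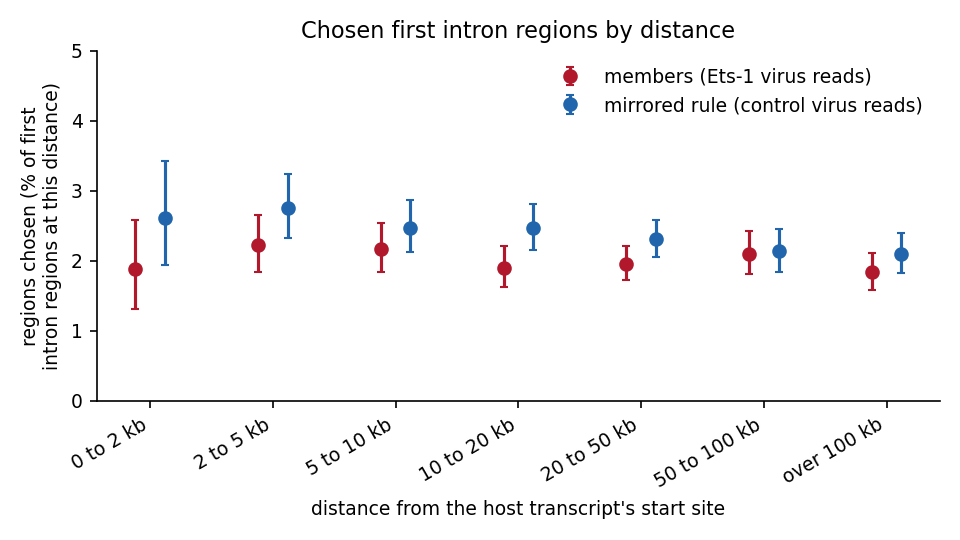
Share of first intron regions chosen (vertical axis, percent) by distance from the host transcript's start site, for members and for regions chosen by the mirrored rule on control virus reads; bars are exact 95% intervals. The share of members stays between 1.84% and 2.22% at all distances.

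For comparison the rule was mirrored on the control virus, with 5 or more control virus and 4 or fewer input reads. It found 1289 first intron regions (2.34%), of which 31 are also members. Their median distance from the host start was 24.1 kb. To the nearest start site of any gene, members lay a median of 11.1 kb, mirrored regions 11.0 kb and all first intron regions 12.4 kb. The nearest were Igsf8 (1062 bp), the crystallin gene Crygn (1068 bp), the mevalonate pathway enzyme gene Pmvk (1074 bp) and Tmeff2 (1104 bp). Igsf8 had 6 Ets-1 virus and 6 control virus reads, and the other 3 had 5 or 6 Ets-1 virus and 0 control virus reads. The farthest were in Ptprd (273115 bp and 257512 bp), Csmd1 (264524 bp) and Nrg1 (250909 bp).

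The recognition word was rare in members. It stood in the 200 bp window of 12 members, 1.09% (0.565 to 1.90), against 1.32% of windows 2 kb to either side of them. It stood in 1.09% of mirrored regions and 1.42% of all first intron regions. CCGGAAGT was found in 2 members and CAGGAAGT in 10, and the word spelled backwards, used as a control of the same base composition, stood in 1.36%. Promoter regions of the table by the same read limits held the word in 3.19% (49 of 1534; 2.37 to 4.20), and their windows held CCGGAAGT alone in 2.41%. The intervals of members and promoters did not overlap, while those of members, their flanks and all first intron regions did. Promoter regions at large were not searched, so beyond their flanks (1.24%) the promoters' share has no background of its own. A match is a string of letters and not a bound site.

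The 2 members with CCGGAAGT, whose sequences are printed above, were in Ntm and Opcml, which encode adhesion molecules of the same IgLON family and lie on chromosome 9. The Ntm region had 6 Ets-1 virus reads and none in the other libraries, and the Opcml region had 5 Ets-1 virus, 2 control virus and 0 input reads. Usp12, a deubiquitinase gene, and Acvr2b, a receptor for activins, each had CAGGAAGT and 6 Ets-1 virus reads against 0 in both other libraries. The tetraspanin gene Tspan9 had 6 Ets-1 virus, 1 control virus and 1 input reads, and the cell death kinase gene Dapk1 had 6, 2 and 0. Thsd7a had 5, 0 and 0, and the ephrin receptor gene Epha6 had 5, 0 and 2. The 8 members named here had 5 or 6 reads, but they are not all members with the word. Of the 231 members with 8 or more Ets-1 virus reads, 3 held it (1.30%; 0.269 to 3.75), and these 3 are not named here.

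Members differed from their surroundings in tandem repeats, a measure added after the data had been seen. A perfect run of at least 16 bases stood in the window of 226 members, 20.6% (18.2 to 23.1), against 10.1% of windows 2 kb to either side (221 of 2198). The mirrored control virus regions gave 19.3% (249 of 1289) against 10.0% in their flanks, and later intron regions by the members' read limits gave 21.8%. All first intron regions gave 10.8%, and promoter regions by the same limits 14.4%. The enrichment of runs at the centre was thus present in the regions of both viruses.

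**Figure D3:**
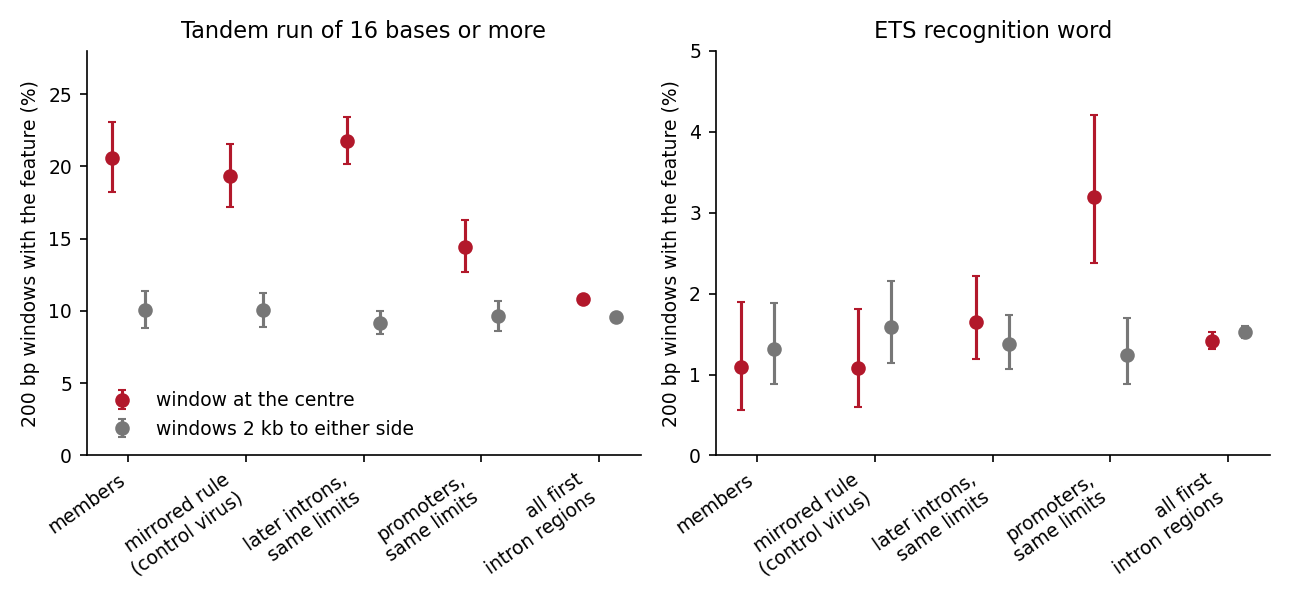
Share of 200 bp windows (vertical axes, percent, on different scales) with a tandem run (left) and with the ETS recognition word (right), at the region centre and 2 kb to either side, for members and 4 other sets; bars are exact 95% intervals. Tandem runs stand higher at the centre of members (20.6%) than in their flanks (10.1%), and the word stands higher in promoters (3.19%) than in members (1.09%).

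Runs of CA or GT, 8 or more copies long, stood in 7.37% of members, 2.23% of their flanks and 3.02% of all first intron regions. Runs of GA or CT stood in 3.28% of members and 1.05% of flanks, and runs of a single base in 2.91% and 1.50%. Of the 226 members with a run, the longest run had a unit of 2 bases in 103 (45.6%), 4 bases in 44 and 1 base in 28. GGAA repeated 4 or more times, a string that carries the ETS core, was found in 8 members (0.728%; 0.315 to 1.43). It stood in 9 mirrored regions (0.698%) and in 0.332% of all first intron regions, so the intervals of members and mirrored regions overlapped widely. The core GGAA by itself was in 86.1% of members and 87.0% of all first intron regions.

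The share with a tandem run grew with the number of reads. Among first intron regions with 4 or fewer input reads it was 10.4% at 0 Ets-1 virus reads, 10.3% at 1 to 2 and 13.6% at 3 to 4. It was 14.9% at 5, 17.2% at 6, 19.5% at 7 (8 of 41), 33.6% at 8 and 38.6% at 9 or more (34 of 88; 28.4 to 49.6). By control virus reads it was 10.9% at 0, 19.4% at 6, 32.7% at 8 and 22.4% at 9 or more (15 of 67; 13.1 to 34.2). The recognition word stayed between 0 and 1.46% over the bins of Ets-1 virus reads; its 0 of 41 at 7 reads allows a share of up to 7.32%.

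**Figure D4:**
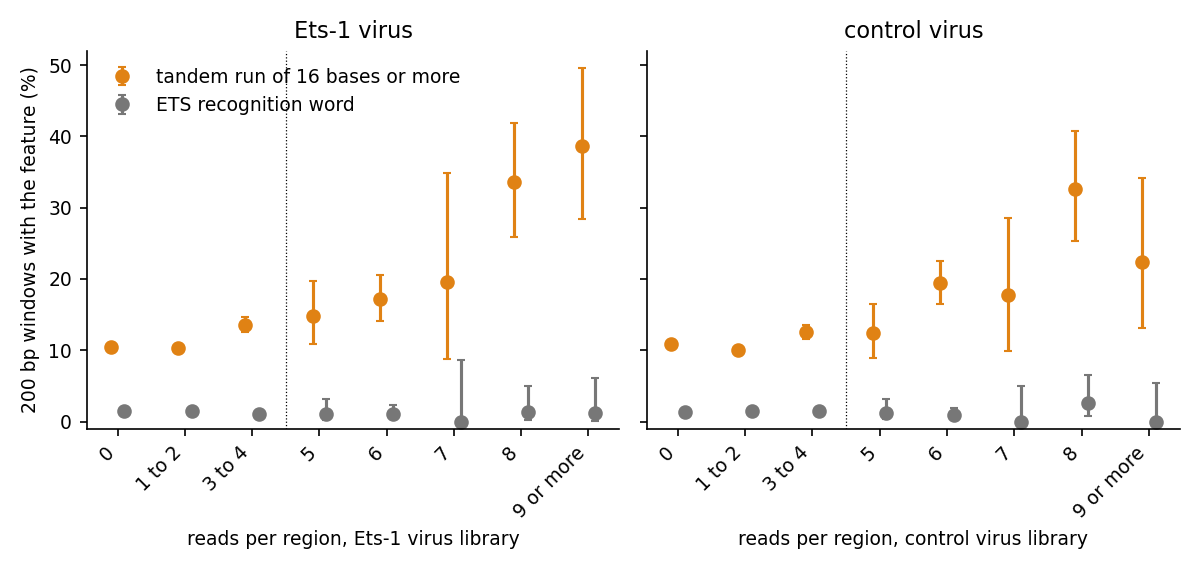
Share of first intron windows (vertical axis, percent) with a tandem run and with the ETS recognition word by reads per region in the Ets-1 virus library (left) and the control virus library (right), among regions with 4 or fewer input reads; bars are exact 95% intervals and the dotted line is the limit of 5 reads. The tandem run share reaches 38.6% at 9 or more Ets-1 virus reads and 32.7% at 8 control virus reads, and the word share stays low in both.

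Input reads moved with the runs. Members with a run had a mean of 7.13 Ets-1 virus, 0.735 control virus and 0.310 input reads, and members without one had 6.28, 0.733 and 0.174. Among all first intron regions, a run stood in 25.4% of the 59 with 3 or more input reads (15.0 to 38.4) and in 10.7% of those with 0. Among the 942 members with 0 input reads the share with a run was 19.5%, against 20.6% of all members. Among the 176 of these with 8 or more Ets-1 virus reads it was 34.7% (27.7 to 42.2), against 35.5% of all members with 8 or more and 10.2% in the flanks of the same 176. In the genome's own masking, 31.1% of members, 28.2% of mirrored regions and 24.9% of all first intron regions had windows more than 50% repeat.

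In members, base composition and the AP-1 and SP1 words were close to the background. The AP-1 word, TGACTCA or TGAGTCA, stood in 3.37% of members (2.38 to 4.61) and 3.22% of all first intron regions. It stood in 4.81% of mirrored regions (3.71 to 6.12) and 4.58% of their flanks. The SP1 word GGGCGG stood in 1.64% of members, 1.63% of all first intron regions and 22.9% of promoter regions by the same read limits. The cAMP response word TGACGTCA was found in 3 members (0.273%; 0.0563 to 0.796), against 0.116% of all first intron regions and 0.0455% of the members' flanks, with intervals that overlapped. Median GC content was 41.0% in members, 40.5% in mirrored regions, 41.5% in all first intron regions and 49.0% in the promoter regions. All words were searched on both strands.

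The members lay in 902 of the 8996 genes with a first intron region, 10.0%, as assigned by the transcript the annotation names. Protein-coding genes hosted 76.3% of members and 75.3% of all first intron regions. Genes with a single member numbered 765, and 35 genes had 3 or more. Nrg1, a ligand of ErbB receptors, had 7 members among 260 first intron regions (2.69%), with 5 to 9 Ets-1 virus and up to 2 control virus reads. Of these, 1 lay in an intron of 40.8 kb and the others in an intron of 915 kb. The Slit receptor gene Robo1 had 6 of 71 (8.45%) and the receptor phosphatase gene Ptprd 6 of 78 (7.69%). Cadm2 had 5 of 66 (7.58%) and the heparan sulphate sulphotransferase gene Hs6st3 5 of 146 (3.42%). These genes were picked for their many members, so their shares are given without comparison. By the mirrored rule Nrg1 had 6 regions, Robo1 4, Ptprd 2, Cadm2 3 and Hs6st3 5.

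The predicted gene Gm20388 also had 7 members, among 505 first intron regions. Of the 6 Robo1 members, 3 had no control virus read, and one had 8 reads in each precipitated library and 1 in the input. Of the 6 Ptprd members, 5 had no control virus read and none had an input read. The highest Ptprd member had 10 Ets-1 virus reads, at chr4:78121990-78122832, 89.5 kb from the host start. The highest Nrg1 member, with 9 Ets-1 virus and 2 control virus reads, lay 447 kb from the host start.

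Lists of β-cell genes had few first intron regions, so their shares of members rest on small counts. No member lay in the 6 β-cell identity genes that had a first intron region, which held 34 regions (up to 8.82% is allowed by 0 of 34). None lay in the 9 unfolded protein response genes with 30 regions, which allows up to 10.0%. In Ets1 itself the single first intron region had 0 Ets-1 virus, 2 control virus and 0 input reads, and in Ins2 the 3 regions had 0 Ets-1 virus and up to 4 control virus reads. Of 16 insulin signalling genes, 2 had a member. Grb10, an adaptor that restrains the insulin receptor, had 6 Ets-1 virus reads and none elsewhere, and the receptor substrate gene Irs1 had 6 Ets-1 virus, 2 control virus and 0 input reads. The list had 2.04% of its 98 regions as members, against 2.00% of all first intron regions.

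Of 14 glucose sensing and channel genes, 3 had a member, or 2.11% of 142 regions. The L-type calcium channel genes Cacna1c and Cacna1d had 6 and 5 Ets-1 virus reads, and the adenylyl cyclase gene Adcy5 had 5, all with 0 in the other libraries. Of 13 secretory granule genes, 1 had a member. That was Cpe, the carboxypeptidase that trims prohormones, with 11 Ets-1 virus, 1 control virus and 0 input reads at chr8:64665016-64665557, 27.8 kb from the host start; its ratio was 10.1 (0.667 to 253). Of 5 antioxidant genes 1 had a member, Nfe2l2, which encodes the regulator NRF2, with 9 Ets-1 virus, 0 control virus and 1 input reads. In the ETS family, 2 of 10 genes had a member, the repressors Etv6 and Elk3, each with 6 Ets-1 virus reads and none elsewhere.

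The axon guidance and small GTPase lists had the most first intron regions and also the most members. Of 32 axon guidance and adhesion genes, 15 had a member by the Ets-1 virus and 15 by the mirrored rule, and members were 28 of 1347 regions (2.08%). Unc5d, a netrin receptor gene, the neurexin gene Nrxn3 and Ntm had 8 Ets-1 virus reads each and none elsewhere in their highest member. Of 28 regulators of small GTPases, 8 had a member and 7 a mirrored region, and members were 12 of 514 regions (2.33%). The exchange factor genes Dock3, Vav2 and Dock10 had 10, 8 and 6 Ets-1 virus reads and none elsewhere. Among markers of other cell types, 1 of 6 genes had a member, the endothelial VEGF receptor gene Flt1, with regions of 8 Ets-1 virus, 0 control virus and 0 input reads and of 6, 6 and 1. The share of regions that were members was between 1.19% and 2.33% in the 5 lists with at least 84 regions, near the 2.00% background. It was higher in 3 lists with few regions, where it rests on 2 of 49 for the ETS family, 1 of 16 for the antioxidant genes and 2 of 23 for the other cell type markers.

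Chromosomes differed in their share of members. It was 3.49% on chromosome 6 (83 of 2381; 2.79 to 4.30) and 0.745% on chromosome X (19 of 2550; 0.449 to 1.16), against 2.00% in all. By the mirrored rule it was 2.73% on chromosome 6 and 1.29% on chromosome X, against 2.34% in all. The share of first intron regions with an input read moved the same way, with 8.74% on chromosome 6 and 3.84% on chromosome X, against 6.76% in all. The part of the input level in the members' shares was not tested.

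**Figure D5:**
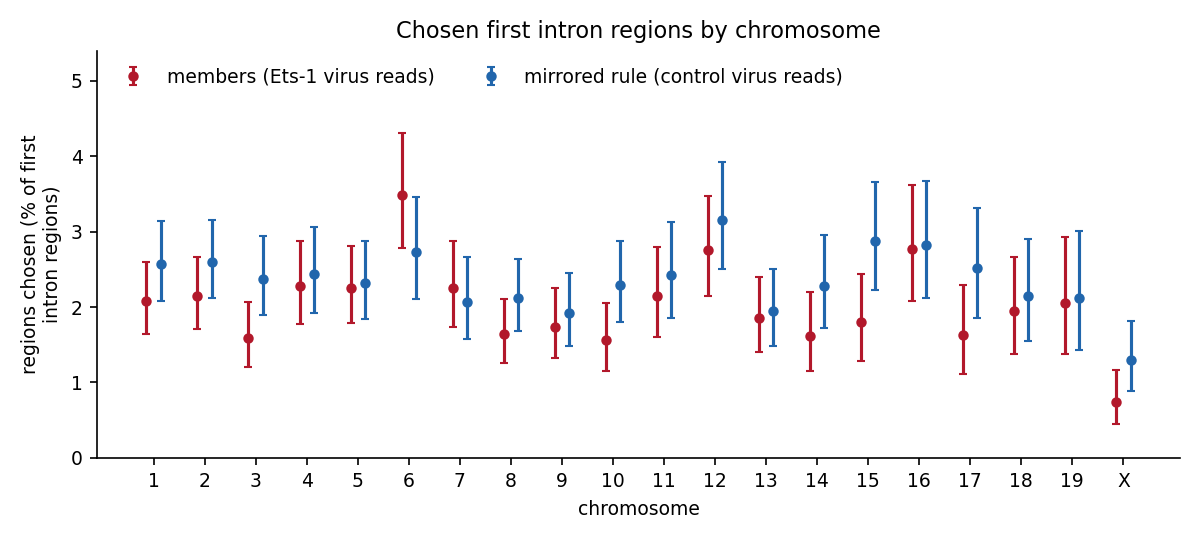
Share of first intron regions chosen (vertical axis, percent) on each chromosome, for members and for regions chosen by the mirrored rule on control virus reads; bars are exact 95% intervals. Chromosome 6 has the highest share of members (3.49%) and chromosome X the lowest (0.745%).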

How the data were processed

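ChIP-seq libraries, 1 per group, came as 3 deposited files, of which 2 are peak lists and 1 a table of regions. The submitters' processing notes name MACS2 2.1.0, BWA 0.7.12, Trimmomatic and FastQC, and the build mm10; their settings were not given in the sources used here. In the table the authors deposited a read count per region and library, an RPM value (count plus 1, scaled to the library total), a ratio of RPM values and its log2 value; the last 2 were not used. In the peak lists the authors deposited a score, a fold enrichment (a ratio) and the −log10 of its q-value for each peak; fold and q served only to describe peaks.

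Totals were recovered from count plus 1 and RPM and agreed between regions within 0.000418%. Groups came from the sample titles. Introns, host genes and start distances of the transcript named in the annotation came from GENCODE M21. The deposited nearest gene had no name for 489 members (44.5%), so genes were named by host. Windows were read from GRCm38.p6, whose soft masking gave repeats. Shares have exact Clopper-Pearson intervals and read ratios exact conditional binomial intervals at the 95% level. The upper limits given for gene lists with 0 members are approximate, as 3 divided by the number of regions. Ratios were computed on reads and their intervals on fragments of 2 reads, rounded up, and no ratio was given where both libraries held 3 or fewer reads. Totals limit precision: most members had 5 or 6 Ets-1 virus reads, which can be as few as 3 fragments. Fragments themselves were not counted. Code was tested on simulated data and run with Python 3.11.15, pandas 2.3.3, scipy 1.17.1 and pysam 0.24.0.

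Members and 10 gene lists were chosen with earlier results of these data known. Named regions follow a rule: the 10 members with most Ets-1 virus reads, the 8 with most among those with 0 control virus reads, the 6 with most control virus reads, up to 8 with the ETS word, the 5 genes with most members, the 4 nearest to and farthest from a start site, and up to 3 per list, passing over predicted genes. Of these, 1 region is not reported here. Gm20388, Ets1 and Ins2 fall outside it, and were named after their values were seen. Other limits on reads, input and windows, other words, 1 region per gene and the nearest gene were tried.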

Additional observations from a re-analysis of the deposited data

How the results depend on the processing

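Of 36 alternatives, 21 left a value within its interval or within 1.5 times, and 15 moved it. The number of members, 1099, became 231 with a minimum of 8 and 65 with a minimum of 10 Ets-1 virus reads. The share with 5 or more control virus reads became 4.55% without an input limit, and 8.10% when 3 control virus reads sufficed. With 10 or more Ets-1 virus reads it became 6.15%, with an interval of 1.70 to 15.0 that includes the main 2.82%. The summed ratio became 9.77 with 8 or more Ets-1 virus reads, and the median distance to a start site 9.32 kb with 1 region per gene. The ETS word share became 3.00% in 400 bp, 0.182% for CCGGAAGT and likewise for ACCGGAAGT, and 86.1% for GGAA. Genes of the lists with a member numbered 16 by the deposited nearest gene and 33 by host gene. The tandem run share became 38.2% with runs of 12 bases, 12.5% with 24 and 36.6% in 400 bp; mirrored regions gave 36.8%, 12.5% and 33.8%, and all first intron regions 27.9%, 5.82% and 19.9%. Each change follows from the altered limit, word, window or gene assignment. Depth limits all single members. No paired analysis was possible because 1 library was made per group.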

Other observations

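Regions kept out by the input limit were few. Of first intron regions with 5 or more Ets-1 virus reads, 21 had 5 or more input reads. The one with most reads, in the predicted gene Gm33838 on chromosome 9, had 9236 Ets-1 virus, 8319 control virus and 1872 input reads. Mdga2 had 90, 81 and 68, and the oestrogen receptor gene Esr1 had 38, 34 and 24. Slco1a5, an organic anion transporter gene, had 39 Ets-1 virus, 3 control virus and 8 input reads. These regions were chosen after their values were seen.

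Long noncoding hosts were no more common among members. LincRNA genes hosted 162 members (14.7%; 12.7 to 17.0), against 16.1% of all first intron regions, and antisense genes hosted 43 members (3.91%; 2.85 to 5.23), against 4.63%.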
